A study of Etheostoma caeruleum with 31 samples.

Results

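Testes of the rainbow darter (Etheostoma caeruleum), from adult males caught in March 2012 in the pre-spawning state, were compared with those of males caught in October 2011, during recrudescence. The comparison spans the winter and gives its net change. It rests on the 7 arrays titled as pre-spawning and the 5 titled as recrudescence, 12 of the 31 arrays of the series, chosen by these labels alone. The other arrays are developing testes of January 2012 (6 arrays), spawning testes of May 2011 (7 arrays) and post-spawning testes of August 2011 (6 arrays). All fish were wild adult males taken by electrofishing in an area of the Grand River, Ontario, that the labels call clean, and the labels call the arrays of a stage biological replicates. The labels give no strain, no exact age and no number of fish per array. Each stage is a single collection in a single month, so that season, temperature, year and reproductive state cannot be told apart.

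The rainbow darter is a small stream fish of the perch family that spawns in spring. In fish with a yearly breeding season the testis regresses after spawning and regrows during recrudescence, when spermatogonia multiply and germ cells pass through meiosis, and it holds ripe sperm by the time of spawning. A testis sample is a mixture of germ cells at several steps, of the Sertoli cells that nurse them and of the Leydig cells that make androgens, and in such bulk samples a change in the number of cells of a type and a change of RNA per cell cannot be told apart. The probes carry only the names of the array's design, without genes. The tissue could therefore not be checked against marker genes, no pathway could be followed, and the results are given for probes. A probe is an oligonucleotide on the array that binds RNA of a given sequence, and its brightness follows the amount of that RNA. Levels below are log2 intensities relative to the 75th percentile of the array, so that 0 marks that percentile, and levels are not compared between probes.

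Spot intensities at the 75th percentile averaged 3490 ± 332 on the pre-spawning arrays (SD, n = 7) and 3848 ± 552 on the recrudescence arrays (n = 5). Over the 12 arrays, an array correlated with the others of its own stage at a median of 0.969 to 0.982 across probes, and with those of the other stage at 0.957 to 0.969. Pre-spawning replicate 3 stood apart from the other pre-spawning arrays in its brightness and in the share of signal held by its brightest probes, and the counts below were little changed without it (2374 probes passed, against 2566). The closest pair of arrays in the series correlated at 0.985. The number of arrays limits the precision of every value.

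Of 8638 probes tested, 2566 (29.7%) differed between pre-spawning and recrudescence testis at an adjusted p under 0.05 in limma with Benjamini-Hochberg adjustment. In pre-spawning testis 1126 probes (13% of those tested) were higher and 1440 (16.7%) were lower. Falls were larger than rises in the middle of their range. The probes that fell did so by a median of 0.70 on the log2 scale, or 1.63-fold, with quartiles of 1.43-fold and 2.02-fold. The probes that rose did so by a median of 0.54, or 1.46-fold, with quartiles of 1.31-fold and 1.72-fold. A change of at least 2-fold was found for 159 rising probes (1.84% of those tested) and 375 falling ones (4.34%), 534 in all (6.18%). Of these, 52 rising and 186 falling probes were not well above background on all 12 arrays. Among changed probes well above background on all 12 arrays, the median rise was 1.43-fold and the median fall 1.54-fold. Of the 2566 changes, 1158 (45.1%) were smaller than 1.5-fold. The median SE of a log2 difference was 0.18.

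How the changes divided into rises and falls depended on the scale used to compare arrays. Centring arrays on their median gave 1388 rises and 1245 falls. With scaling to the Agilent spike-in probes 92 rose and 647 fell. Spike-in scaling carries each array's brightness relative to its spike-in probes into its values. It put the median of all probes 0.18 lower in pre-spawning than in recrudescence testis, against 0.0074 lower under the 75th percentile. Under it 12.4% of the changed probes rose, against 43.9%. With another background correction (normexp), 1155 probes rose and 1087 fell. Falls of at least 2-fold outnumbered such rises under each of these scalings, with 115 falls and 82 rises under normexp, 323 and 188 under centring on the median, and 467 and 55 under spike-in scaling.

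**Figure D1:**
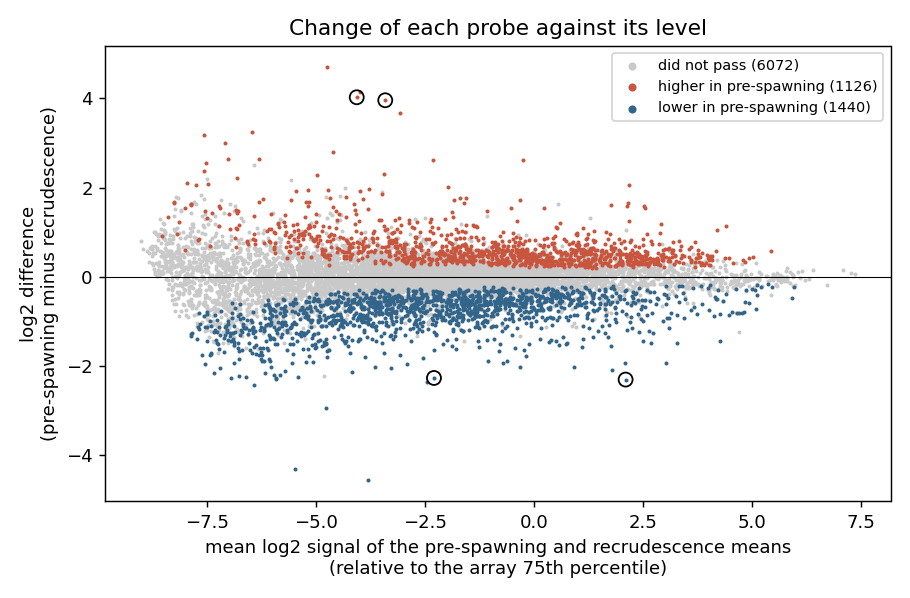
Log2 difference of each of 8638 probes (pre-spawning minus recrudescence, vertical axis) against the mean of its levels in both stages (horizontal axis, log2 relative to the array's 75th percentile). Each point is a probe, coloured by direction where it passed the threshold (1126 higher and 1440 lower in pre-spawning), and rings mark the 4 probes described singly; most changes lie within 1 log2 unit, and the few beyond 3 units are mostly rises.

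The arrays of both stages did not overlap at all for 1161 probes (13.4% of those tested), of which 535 (6.19%) were higher and 626 (7.25%) lower on every pre-spawning array than on every recrudescence array. Among the probes past the threshold, 520 of the 1126 that rose and 611 of the 1440 that fell had no overlap. All 2566 kept their direction when any of the 12 arrays was left out, which their choice on these same arrays favours. Calls were more fragile than directions: 722 of the rising and 984 of the falling probes passed the threshold in every fit that lacked an array. Most probes have 2 spots on the array. For the 1850 changed probes with 2 spots, both spots gave the same direction in all 1850, and their log2 changes lay a median of 0.039 from each other. These probes were chosen on the mean of the same spots. Among the probes with 2 spots that did not pass, the direction was the same in 91.1%. Since both spots of a probe read the same RNA sample, their likeness describes the measurement and not the fish.

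Rises of any size were most frequent among bright probes under every scaling tried except spike-in scaling, where they were least frequent there. Probes were divided into quartiles by their mean level over all 31 arrays. In the brightest quartile 470 of 2160 probes (21.8%) rose and 314 (14.5%) fell. In the dimmest quartile 153 (7.08%) rose and 298 (13.8%) fell, and the 2 middle quartiles lay between these for rises, with 207 of 2159 (9.59%) in the second and 296 of 2159 (13.7%) in the third. The median SE of the difference was 0.12 in the brightest and 0.34 in the dimmest quartile, so that a smaller change could pass among bright probes. The order of the quartiles for rises was the same with arrays centred on the median, where 560 rose in the brightest and 187 in the dimmest quartile, with quantile normalisation (413 and 200) and with normexp (458 and 167). With spike-in scaling there were 14 rises in the brightest and 37 in the dimmest quartile. Falls in the dimmest quartile numbered 71 with normexp, against 298.

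**Figure D2:**
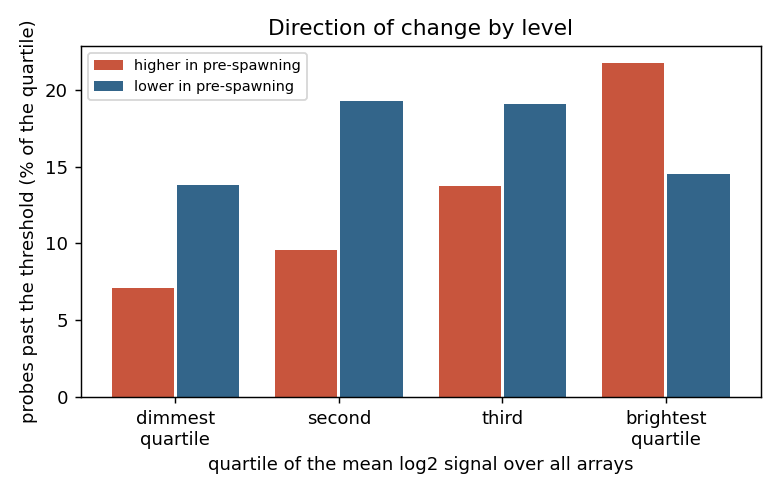
Share of probes past the threshold (vertical axis, percent of the quartile) that were higher or lower in pre-spawning than in recrudescence testis, by quartile of the mean level over all arrays. Rises reach 21.8% in the brightest quartile and 7.08% in the dimmest, whereas falls are 13.8% in the dimmest and 14.5% in the brightest.

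The share of probes detected was lower on average in pre-spawning testis, by a difference that did not pass after adjustment. On the pre-spawning arrays 84.5 ± 2.81% of the array's probes were well above background (SD, n = 7; lowest 81.2%, median 83.9%, highest 89.3%), against 89.0 ± 1.93% on the recrudescence arrays (n = 5; lowest 85.8%, median 89.4%, highest 90.6%). The ranges overlap, since the highest pre-spawning array lies above the lowest recrudescence array. The difference was -4.53 percentage points, with a p of 0.0177 in an exact two-sided permutation test over all splits of the arrays. It did not pass after adjustment over the 6 array measures compared in this way (adjusted p = 0.106 in the exact permutation test). The share of arrays on which a probe was well above background was lower in pre-spawning for 1261 probes and higher for 260. No probe was well above background on all pre-spawning arrays and on no recrudescence array, while 16 showed the opposite. These 16 were at least 2.24-fold lower in pre-spawning testis at the median (1.31-fold to 3.83-fold), with each dim array set at the lowest signal counted as above background or at the probe's own signal if higher. Of the 16, 14 passed the threshold in limma. The way the 16 were chosen fixes their direction. The mean 75th percentile intensity was also lower in pre-spawning (3490) than in recrudescence testis (3848). The brightest pre-spawning array (replicate 3, 4187) had 82.9% of probes detected, and that with most detected (replicate 4, 89.3%) read 3279. For recrudescence these arrays were replicate 5 (4473, 88.8%) and replicate 3 (4281, 90.6%). The part of brightness was not tested.

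**Figure D3:**
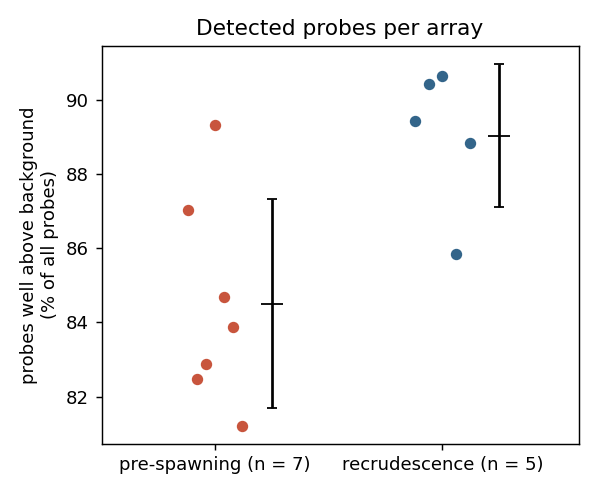
Probes well above background on each array (vertical axis, percent of all probes on the array) in pre-spawning and recrudescence testis. Points are arrays and the bars give the mean and SD (84.5 ± 2.81% and 89.0 ± 1.93%). Most pre-spawning arrays lie below the recrudescence arrays, but the highest, at 89.3%, lies above the lowest recrudescence array, at 85.8%.

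The other array measures gave no difference past the threshold. The 100 brightest probes held 31.2 ± 1.31% of the summed signal on the pre-spawning arrays (n = 7) and 32.0 ± 1.12% on the recrudescence arrays (n = 5), with an exact permutation p of 0.346. The 75th percentile of the intensity, given above, differed with an exact permutation p of 0.184.

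Probes are described singly where they had one of the 2 largest rises or 2 largest falls among the 1048 rising and 1180 falling probes that were past the threshold and well above background on all 12 arrays. Probe GT_EA516_an_s_sp_4398 had the largest rise. Its level on the pre-spawning arrays was -2.56 at the lowest, -2.27 at the median and -1.43 at the highest, and on the recrudescence arrays it was -6.29, -5.99, -5.84, -6.69 and -5.55. The stages are far apart, and the spread within each is small. The means were -2.05 ± 0.45 in pre-spawning (SD, n = 7) and -6.07 ± 0.44 in recrudescence testis (n = 5), a log2 difference of 4.02 (SE 0.26), or 16.3-fold, with an adjusted p of 1.9e-11 in limma. Its 2 spots gave 4.01 and 4.04. Through the year it stood at -1.84 ± 0.62 in spawning (n = 7), -4.23 ± 0.37 in post-spawning (n = 6), -6.07 in recrudescence, -4.17 ± 0.29 in the developing stage (n = 6) and -2.05 in pre-spawning testis. It was thus lowest in October, and the January arrays (-4.52 to -3.66) lay between those of October and March without touching either.

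Probe CUST_3_PI428058183, from the small set of probes with custom names, had the second-largest rise and rested on few arrays. Pre-spawning replicate 2 read 5.71, replicate 1 read -0.37 and replicate 7 read -0.79, whereas the other 4 pre-spawning arrays lay at -3.08, -3.55, -3.72 and -4.20. The recrudescence arrays read -4.37, -6.08, -6.14, -4.28 and -6.06. Every pre-spawning array was above every recrudescence array, although the nearest of them almost met. The means were -1.43 ± 3.48 in pre-spawning (SD, n = 7) and -5.39 ± 0.97 in recrudescence testis (n = 5), a log2 difference of 3.96 (SE 1.37) with an adjusted p of 0.0299 in limma. Without pre-spawning replicate 2 the difference was 2.77 and no longer passed (adjusted p = 0.0684 in limma). The call was also lost without pre-spawning replicate 1 (adjusted p = 0.0502 in limma) and without recrudescence replicate 2, 3 or 5 (adjusted p of 0.0625, 0.0634 and 0.0601). The adjusted p was 0.0631 in a limma fit of the 12 arrays alone. The 3 high pre-spawning arrays, replicates 1, 2 and 7, are the 3 on slide 2. The difference was 7.59 within that slide and 1.58 without it (adjusted p = 0.287 in limma), and slide 2 holds a single recrudescence array. With slide as a fixed block the difference was 3.41 and did not pass (adjusted p = 0.0503 in limma), nor did it with spike-in scaling (adjusted p = 0.0693 in limma). The developing arrays ran from -6.05 to 3.00 with a median of -4.53, and their 2 highest lay on slides 2 and 1. The remaining arrays of slide 2 were lower, at -6.08 in recrudescence, -5.93 and -3.93 in spawning and -3.29 in post-spawning testis.

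Probe GT_EA516_an_s_sp_2091 had the largest fall. It read -0.10 at the lowest, 0.55 at the median and 2.62 at the highest on the pre-spawning arrays, and 3.68, 3.72, 2.75, 3.03 and 3.10 on the recrudescence arrays. The stages do not overlap, but the highest pre-spawning array (replicate 5) came close to the lowest recrudescence array. The means were 0.95 ± 0.93 in pre-spawning (n = 7) and 3.25 ± 0.42 in recrudescence testis (n = 5), a log2 difference of -2.30 (SE 0.52, adjusted p = 0.0013 in limma), or 4.93-fold lower. Over the year its level was 2.64 ± 0.77 in spawning, -4.22 ± 0.84 in post-spawning, 3.25 in recrudescence, 1.71 ± 1.32 in the developing stage and 0.95 in pre-spawning testis. The loss over winter was small beside the low level of August.

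Probe GT_EA516_un_s_sp_30904 was 4.81-fold lower in pre-spawning testis, with a log2 difference of -2.27, an SE of 0.37 and an adjusted p of 4.58e-05 in limma. Its pre-spawning arrays read -4.42 at the lowest, -3.25 at the median and -2.88 at the highest, and its recrudescence arrays -0.87, -0.77, -1.30, -0.91 and -1.94. All pre-spawning arrays lay below all recrudescence arrays. The means were -3.42 ± 0.57 in pre-spawning (n = 7) and -1.16 ± 0.48 in recrudescence testis (n = 5). In the other stages it stood at -3.55 ± 0.84 in spawning, -4.57 ± 0.46 in post-spawning and -1.71 ± 0.74 in developing testis, so that its mean was highest in October and the January mean lay nearer to October than to March. This probe has a single spot on the array.

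**Figure D4:**
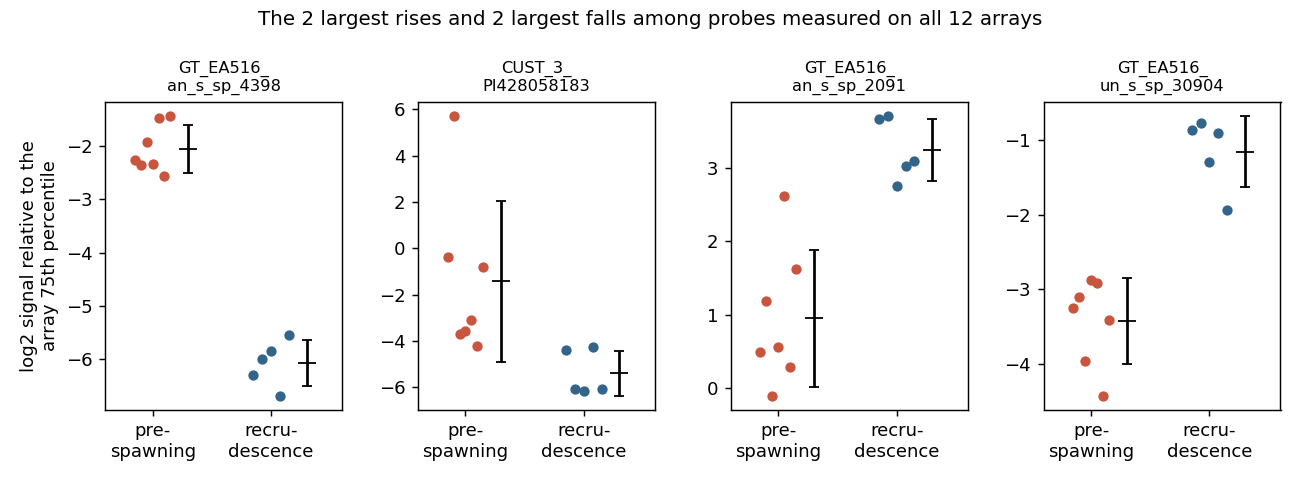
Level of the 4 probes (vertical axes, log2 relative to the array's 75th percentile, each panel with its own scale) on the 7 pre-spawning and 5 recrudescence arrays, with the mean and SD beside the points. The stages do not overlap in any of the 4 panels; in the second, pre-spawning replicate 2 stands at 5.71, far above the other 6 pre-spawning arrays.

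The very large rises were mostly uneven among the pre-spawning arrays. Of the 8 probes that rose at least 8-fold, 4 passed the threshold in every fit that lacked an array, and the median SD of these 8 was 2.90 over the pre-spawning arrays and 0.84 over the recrudescence arrays. In 4 of the 8, pre-spawning replicate 2 exceeded the next-highest pre-spawning array by 6.09 to 6.45 on the log2 scale, and 2 of these 4 were not well above background on any recrudescence array. The other 2 were the custom probes CUST_3_PI428058183 and CUST_4_PI428058183. CUST_4_PI428058183 rose by 4.13 and followed CUST_3_PI428058183 over the pre-spawning arrays, with replicates 2, 1 and 7 highest at 5.24, -0.92 and -1.35. Whether both read the same RNA was not tested. The fit's largest log2 difference, 4.71, belonged to a probe that was well above background on all 7 pre-spawning arrays but on only 2 of the 5 recrudescence arrays, so that it includes signals near the background. Its pre-spawning levels ran from -5.38 to 1.11. The 2 probes that fell at least 8-fold were steadier: both passed in every fit that lacked an array and neither overlapped between the stages. One averaged -6.07 ± 0.46 in pre-spawning and -1.51 ± 0.76 in recrudescence testis, a 23.6-fold fall (adjusted p = 9.59e-09 in limma), and was well above background on 5 of the 7 pre-spawning arrays. The other averaged -7.64 ± 1.29 in pre-spawning and -3.33 ± 0.66 in recrudescence testis and was well above background on 1 pre-spawning array. Its limma fold of 19.8 (adjusted p = 1.47e-06) likewise includes signals near the background.

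The spread among arrays was similar in both stages over all probes. The median SD of a probe was 0.28 over the pre-spawning arrays and 0.26 over the recrudescence arrays on the log2 scale, and 56.6% of the probes had the larger SD in pre-spawning testis. Arrays differed in how many probes set them apart. On pre-spawning replicate 6, 731 probes were at least 2-fold above the median of the other pre-spawning arrays, whereas the number was 113 to 307 on the other 6 pre-spawning arrays and, against the other arrays of its own stage, 130 to 330 on a recrudescence array. Probes at least 8-fold above the median of the other arrays of the stage numbered 51 on pre-spawning replicate 2, 50 on replicate 6 and 10 to 36 on the other pre-spawning arrays, against 10 to 32 on the recrudescence arrays.

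The probe names hold 3 fields that the sources used here do not explain, the first being an or un, the second s or as and the last sp or xh. Against the 29.7% of all probes that passed, the share was 31.8% of 6219 probes with an and 24.1% of 2402 with un. Most of this difference was in the falls, with 18.4% of the probes with an and 12.0% of those with un lower in pre-spawning testis, while 13.4% and 12.1% were higher. The median SE was 0.16 for probes with an and 0.24 for those with un, and its part in the share was not tested. Changes of at least 2-fold were more frequent with un (61 rises and 110 falls of 2402) than with an (96 and 262 of 6219). The share passing at any size was 30.4% for s and 27.9% for as, and 33.5% for xh and 27.8% for sp. Median SEs were 0.17 and 0.19 for s and as, and 0.15 and 0.19 for xh and sp. Of the 18 custom probes 17 were tested. Of these 4 rose (23.5%) and 5 fell (29.4%), 52.9% in all, against 13.0%, 16.7% and 29.7% of all probes tested. Their log2 differences ran from -1.88 to 4.13 over the 17, with a median of 0.01. The rises include CUST_3_PI428058183 and CUST_4_PI428058183, which followed each other over the pre-spawning arrays. The call of CUST_3_PI428058183 was lost without some single arrays. Within the pre-spawning stage the custom probes spanned a median of 1.40 from the lowest to the highest array, against 0.79 for all probes, and within recrudescence 0.66, equal to the 0.66 of all probes.

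The January arrays were placed against the October and March means on the changed probes. They enter the fit only through the shared estimate of the spread. January differed from both ends at more probes than the ends differed from each other. In the same fit 42.6% of probes passed between recrudescence and developing testis and 52.4% between developing and pre-spawning testis, against 29.7% between recrudescence and pre-spawning. A position therefore does not describe the whole change through January. For each array, its position between the recrudescence mean (0) and the pre-spawning mean (1) was taken for every changed probe, and the median over probes was used. For each array the means and the calls were made without that array. The pre-spawning arrays lay at 0.851 to 0.987 and the recrudescence arrays at 0.00453 to 0.176, without overlap. With spike-in scaling these ranges met, at 0.6 to 1.28 for the pre-spawning and -0.144 to 0.865 for the recrudescence arrays. The January arrays lay at 0.13 to 0.336, with a median of 0.257, nearer to October than to March. No January array reached the range of March, and 1 lay within the range of October.

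The positions in January are given for rising and falling probes apart, and a shift of all probes moves them in opposite ways. The January mean lay a median of 0.16 above the October mean over all 8638 probes on the log2 scale, 0.26 above it for the rising probes and -0.02 from it for the falling probes. On the January arrays the position was 0.312 to 0.606 (median 0.412) for the probes that rose over the winter and -0.21 to 0.226 (median 0.121) for those that fell, without overlap. The median over January arrays stayed higher for rising than for falling probes with arrays centred on the median (0.33 against 0.167), quantile normalisation (0.365 against 0.234), normexp (0.425 against 0.235) and spike-in scaling (0.464 against 0.0466). The ranges of rising and falling probes overlapped under all 4 of these alternatives. Seen by probe, the January mean of 557 of the 1126 rising probes (49.5%) lay between those of October and March, that of 263 lay above March and that of 306 below October. Of the 1440 falling probes, 443 (30.8%) were between, 302 were below March and 695 (48.3%) were above October in January. These are positions of stage means without a test, and the choice of probes for a difference between October and March itself favours January values between them.

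The spring testes of the year before lay near the March testes. The spawning arrays of May 2011 had positions of 0.708 to 0.964 (median 0.745) and lay nearer to March than to October for rising probes (median 0.757) and falling ones (median 0.767) alike. The lowest May position was 0.712 with centring on the median, 0.692 with quantile normalisation and 0.693 with normexp. With spike-in scaling the May arrays ran from 0.224 to 1.02 (median 0.696), so that not all lay nearer to March. The post-spawning arrays of August 2011 had positions of 0.137 to 0.395 for rising probes, a range that overlaps that of October (0.00681 to 0.238), and of -1.03 to -0.778 for falling ones. The August median for rising probes was 0.0973 with centring on the median, 0.122 with quantile normalisation, 0.281 with normexp and 0.107 with spike-in scaling, and some August arrays were below 0 under the first, second and last of these. That for falling probes stayed below 0 under each scaling tried (-0.973 to -0.598). Over all probes the August mean lay a median of 0.35 above the October mean on the log2 scale, against 0.61 for the falling and 0.18 for the rising probes. The median level of the falling probes was -2.48 in spawning, -1.79 in post-spawning, -1.93 in recrudescence, -2.04 in the developing and -2.60 in the pre-spawning stage. That of the rising probes was -0.58 in spawning, -0.95 in post-spawning, -1.01 in recrudescence, -0.89 in the developing and -0.48 in the pre-spawning stage. Of the falling probes 864 (60%) had their highest stage mean in post-spawning testis, against 46.5% of all probes tested. A further 391 (27.2%) had it in recrudescence, against 9.00% of all probes, and 599 (41.6%) had their lowest in pre-spawning testis, against 18.0%. A probe chosen as falling cannot be highest in pre-spawning or lowest in recrudescence testis, which raises the shares of the other stages. The choice by itself also favours a highest mean in recrudescence and a lowest in pre-spawning testis. Of the rising probes 463 (41.1%) had their highest stage mean in pre-spawning, against 12.0% of all probes, and 311 (27.6%) in post-spawning, against 46.5%. Their lowest was in recrudescence for 519 (46.1%, against 18.8%) and in post-spawning for 447 (39.7%, against 28.3%). The choice of rising probes likewise excludes a highest mean in recrudescence and a lowest in pre-spawning testis. It also favours by itself a highest mean in pre-spawning and a lowest in recrudescence testis.

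**Figure D5:**
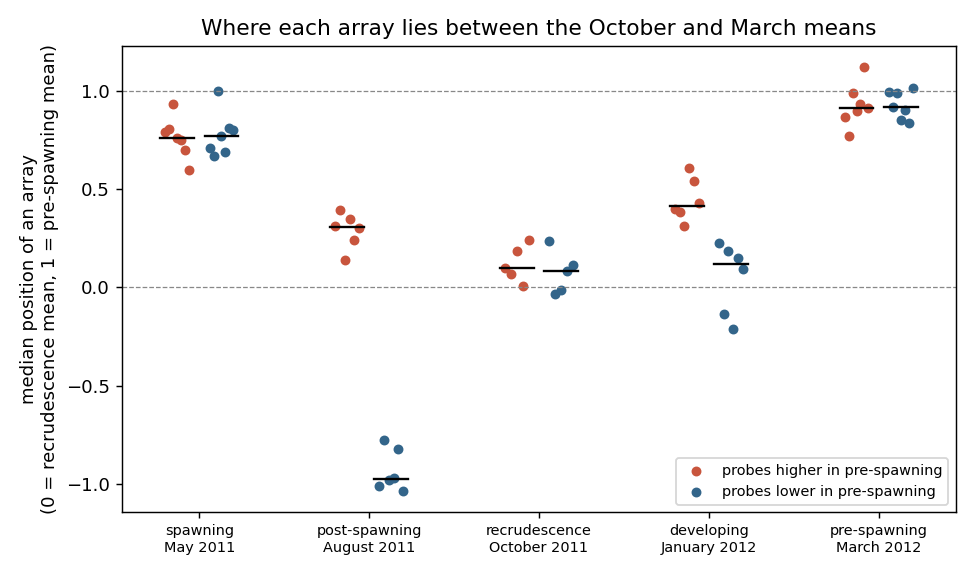
Median position of each of the 31 arrays between the recrudescence mean (0) and the pre-spawning mean (1) over the probes higher (red) and lower (blue) in pre-spawning testis, by stage in calendar order. Points are arrays and lines the medians; under the 75th percentile scaling January arrays lie at 0.312 to 0.606 for rising and -0.21 to 0.226 for falling probes, and August arrays at -1.03 to -0.778 for falling probes.

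Among the 10 pairs of stages in the same fit, 29.7% of probes passed between pre-spawning and recrudescence. The share was lower between spawning and recrudescence (27.9%) and between pre-spawning and spawning (9.46%), and it was 42.6% to 74.6% for the other 7 pairs. Among these, the developing stage of January was at 42.6% with recrudescence and 52.4% with pre-spawning. Pairs that share a stage share its arrays, and the stages differ in their number of arrays.

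The arrays lie on 4 slides, which coincide with the scans, and recrudescence arrays are on 3 of them. With slide as a fixed block 1116 probes rose and 1401 fell. Where calls were made from the other slides, 92.9% of the called probes had the same direction on slide 1 (2 pre-spawning and 2 recrudescence arrays), 93.0% on slide 2 (3 and 1) and 96.0% on slide 3 (1 and 2). In some of these comparisons a stage is a single array, and slide 4 holds 1 pre-spawning and no recrudescence array. Without slide 1, 2 or 3 the counts were 1782, 1585 and 1606, with fewer arrays in each stage, and within these slides alone 419, 287 and 97 probes passed.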

How the data were processed

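Total RNA of testis was hybridised to 1-colour (Cy3) Agilent arrays, 31 in all. The deposited scanner files hold spot intensity (processed signal, background-subtracted, Agilent Feature Extraction 10.7.1.1 per the file headers). The authors' deposited value table holds log2 values of unstated normalisation; each column had a Spearman correlation of 1 with its array's scanner values and a median of 9.70 to 9.71.

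From 15208 spots that are not controls, outlier spots were left out, log2 intensities minus the array's 75th percentile were averaged over the spots of each of 9041 probes, and 8638 probes well above background on at least 5 arrays were tested. A probe counted as well above background where at least 0.5 of its spots were. No spot was saturated (0 spots). All 31 arrays were fitted together in limma 3.58.1 (R 4.3.3), with Benjamini-Hochberg adjustment and a threshold of 0.05. Values of single arrays were compared by exact permutation. The slide, which coincides with the scan, was examined as a batch. Nothing says whether an array holds 1 fish or several, so p-values measure the spread between arrays.

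Since no probe is paired with a gene, the 2 largest rises and 2 largest falls among called probes well above background on all 12 arrays and keeping their direction whichever array was left out were named. The gene and marker lists drawn up for this tissue could not be applied. The comparison and lists were chosen with earlier results of these data known. The array positions, the share of probes detected and the quartiles were examined after seeing the data. The fit was run on simulated data with planted changes and noise independent between arrays and probes, as a check of the code only.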

Additional observations from a re-analysis of the deposited data

Results flagged for a closer look

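Within the 20 sets of arrays examined (10 measures in each stage), 3 had an array far from the rest by Dixon's test at the 95% level, which chance gives in about 1 in 20 sets. Pre-spawning replicate 3 had a 75th percentile intensity of 4187, against 3171 to 3544 on the other pre-spawning arrays. On the same array the 100 brightest probes held 28.6% of the signal, against 30.8% to 32.4% on the others. Probe CUST_3_PI428058183 read 5.71 on pre-spawning replicate 2, where the next-highest pre-spawning array read -0.37 (log2 relative to the array's 75th percentile). This probe had been chosen for its change.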

How the results depend on the processing

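Between 2286 and 2956 probes passed with the 12 arrays alone, an intensity trend, array weights, quantile normalisation, centring on the median, the authors' value table, either other filter on dim probes, or slide as a fixed or random block; normexp gave 2242 and spike-in scaling 739. Leaving out each array in turn gave 2197 to 2471. Without slide 1, 2 or 3 the count was 1782, 1585 and 1606, and within slides 1, 2 and 3 it was 419, 287 and 97, from fewer arrays. The median log2 difference of all probes was 0.047 with normexp, 0.044 with centring on the median and -0.18 with spike-in scaling.

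Replicate numbers were not taken to pair the arrays. With the mean of its stage subtracted from every probe, same-numbered pre-spawning and recrudescence arrays correlated at -0.115 to 0.153 by the titles. By the descriptions, which number the arrays differently, the range was -0.106 to 0.109. No value of differently numbered arrays is set beside these. With the replicate block of the titles 1093 probes passed (1948 for the same 10 arrays without the block), and with that of the descriptions 1526 (1724 without). Where the cause of a changed count is not the smaller number of arrays, the cause was not tested. Signals near the background limit the folds of dim probes.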
